A study of Bos taurus with 8 samples.

Results

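The genes described here are 10 markers of epithelial or mesenchymal identity, taken by symbol from the 28709 genes of the deposited table: the keratins KRT8, KRT18, KRT19, KRT7 and KRT6A, the epithelial surface proteins EPCAM and MUC1, the cadherins CDH1 and CDH2, and the filament protein VIM. All 10 were found, and all 10 passed the filter on low counts that left 13557 genes for testing. They were measured by poly(A) RNA sequencing in BUTE cells, a line of bovine uterine epithelium derived from a Holstein cow, labelled wild type. In 4 libraries the cells had received 10 µM progesterone for 24 h, and in 4 libraries they had received the vehicle DMSO for the same time. In both groups the cells had first spent 24 h in medium without serum or steroids but with insulin-like growth factor 1 (IGF1), and IGF1 at 50 ng/ml was present during the treatment. Every library comes from 1 cell line, and the labels are silent on separate cultures, so the p-values below measure the spread between these libraries, which may be technical.

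Epithelial cells build their intermediate filaments from keratins, which assemble as pairs of a type I and a type II chain. Simple epithelia such as the lining of the uterus pair the type II keratins KRT8 and KRT7 with the type I keratins KRT18 and KRT19, while KRT6A belongs to stratified and stressed epithelia. Epithelial cells hold together through E-cadherin, the product of CDH1, and carry EPCAM and MUC1 at the surface, whereas mesenchymal cells build filaments of vimentin and adhere through N-cadherin, the product of CDH2. Loss of E-cadherin and keratins with gain of N-cadherin and vimentin is the textbook pattern of an epithelial-to-mesenchymal transition, and MUC1 is known to decline in the uterine lining of sheep and pigs before implantation, under progesterone.

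Library totals lay between 23810861 and 32509786 estimated counts. DMSO libraries R7 and R9 stood apart from the other 6 on a first principal component that held 62.2% of the variance. Of 12538 genes with a mean of at least 1 CPM, 221 in R7 and 223 in R9 differed by more than 4-fold from their median, against 3 to 10 genes in any other library. Fold changes of the 10 genes are therefore given with all 8 libraries and again with DMSO R1 and R3 alone against the 4 progesterone libraries. List medians, where printed, are given both ways, and not every list has its median printed. Levels are CPM, counts scaled to a common library size with TMM factors, and are not divided by transcript length, so each gene is compared between libraries and not with other genes. In bulk RNA, fewer cells that express a gene and less RNA per cell cannot be told apart.

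Epithelial and mesenchymal markers were detected side by side in every library. KRT8, KRT19 and VIM each had at least 6818 counts in every library, with VIM at 158661 to 216204. CDH1 had 278 to 744 counts and CDH2 367 to 5722, so both cadherins were present in all 8 libraries. EPCAM was close to the limit of detection, with 9 to 67 counts, where 3 counts correspond to between 0.0917 and 0.124 CPM depending on the library. The label of the cells is uterine epithelium, and several genes that usually define columnar epithelium were at or near 0. The grainyhead factor GRHL2 reached at most 0.124 CPM, and the claudins CLDN3, CLDN4 and CLDN7 at most 0.238, 0.102 and 0.124 CPM. Other genes of the same lists were detected: over the 8 libraries CLDN1 had 45.5 to 378 CPM, OCLN 18.0 to 24.2 CPM and KLF5 101 to 141 CPM. Of 20 tight junction genes 10 passed the filter and 10 did not. Of 21 genes of the epithelial programme 12 passed it and 9 did not. Of 11 genes of the uterine epithelial lineage, 6 passed the filter and none passed the test, and their summed level was 91.3 to 119 CPM with progesterone and 65.4 to 103 CPM with DMSO. Among them the Müllerian factor PAX8 lay between 5.09 and 6.79 CPM with progesterone and between 5.36 and 10.6 CPM with DMSO. FOXA2, which marks uterine glands, reached at most 0.159 CPM with progesterone and 0.882 CPM with DMSO. The list's median log2 fold change was 0.41, and 0.12 without R7 and R9. With all libraries PAX8 (-0.39) and WNT7A (-0.78) were negative, and EMX2, MSX1, PGR and ESR1 positive (0.41 to 0.43). MSX1 had 16.1 to 19.7 CPM with progesterone and 11.04 to 14.8 CPM with DMSO, without overlap. Its edgeR adjusted p was 0.0873, and 0.285 without R7 and R9.

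Markers of other cell types were also present. The 10 endometrial stroma genes all passed the filter, with a summed level of 2442 to 2783 CPM in the progesterone libraries, 3417 and 2989 CPM in DMSO R1 and R3, and 7452 and 6215 CPM in DMSO R7 and R9. Most of that sum was the collagen gene COL1A1, with 1516 to 1851 CPM with progesterone, 2046 and 1928 CPM in DMSO R1 and R3, and 6553.5 and 5295 CPM in R7 and R9. The other 9 stroma genes summed to 789.6 to 1086 CPM with progesterone, 1372 and 1061 CPM in DMSO R1 and R3, and 899 and 919 CPM in R7 and R9. The list did not move as one: R7 and R9 were the 2 highest libraries at 6 of its genes, COL1A1 among them, and the 2 lowest at 4, PDGFRB, COL6A3, HAND2 and the proteoglycan gene DCN. DCN had 522 to 632 CPM with progesterone, 962 and 770.0 CPM in DMSO R1 and R3, and 268 and 281 CPM in R7 and R9. Of 6 mesothelium genes 4 passed the filter, among them mesothelin (MSLN) and LRRN4. The summed level of that list was 1132 to 1499.8 CPM with progesterone, 1379 and 949 CPM in DMSO R1 and R3, and 408 and 381 CPM in R7 and R9, while its marker CALB2 was at or below 0.0679 CPM. Of 8 smooth muscle genes 7 passed the filter, with sums of 904 to 1133 CPM with progesterone and 955 to 1146 CPM with DMSO. Of 8 endothelial genes 2 passed the filter, with sums of 3.84 to 6.74 CPM with progesterone and 3.60 to 5.32 CPM with DMSO. Of 8 leukocyte genes 3 passed it, with sums of 9.59 to 14.4 CPM with progesterone and 6.43 to 13.7 CPM with DMSO. Of 7 genes of ciliated cells 3 passed it, with sums of 9.87 to 17.7 CPM with progesterone and 13.4 to 16.5 CPM with DMSO. The leukocyte gene PTPRC was at 0 in all 8 libraries, and no gene of these 6 lists or of the uterine lineage passed the test, with or without R7 and R9.

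**Figure D1:**
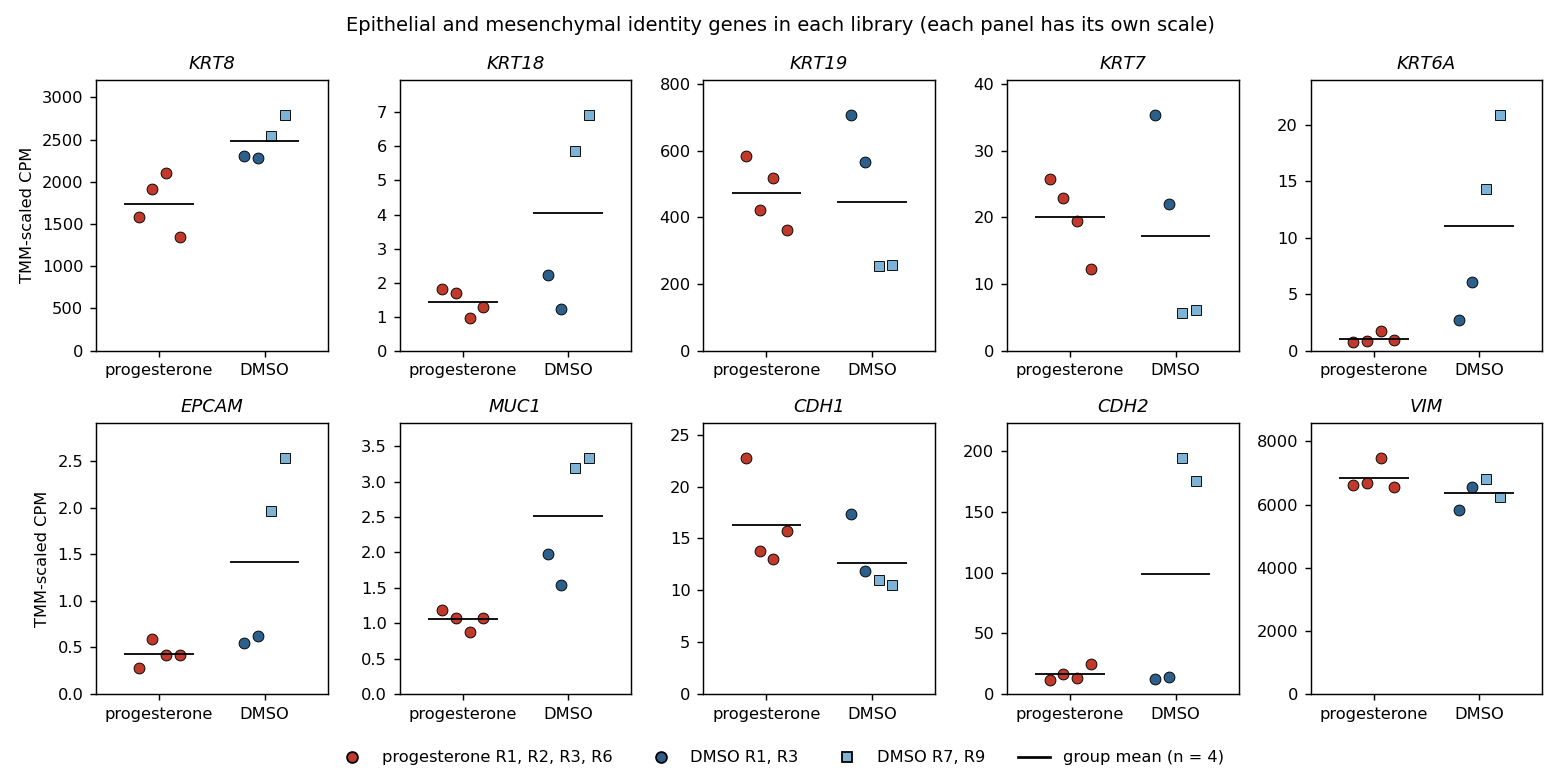
TMM-scaled CPM of the 10 genes in each library, progesterone at the left and DMSO at the right of each panel, with DMSO R7 and R9 as squares and group means (n = 4) as lines. The groups do not overlap at KRT8, KRT6A and MUC1, each lower with progesterone. The squares lie far from the other DMSO libraries at KRT18, KRT19, KRT7, KRT6A, EPCAM and CDH2, and above them at KRT8 and MUC1.

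Progesterone was followed by a lower level of 1 of the 10 genes at the test's threshold, KRT6A, and by no higher one. The threshold was an adjusted p of 0.05 in edgeR's quasi-likelihood test with Benjamini-Hochberg adjustment over all genes tested, which 2.65% of them passed, 0.959% as lower. Without DMSO R7 and R9 the count was again 1 of 10, KRT6A, where 1.18% of all genes tested passed. The 2 groups did not overlap at 3 of the 10 genes (KRT8, KRT6A and MUC1), each lower with progesterone, against 8.22% of all genes tested. Without R7 and R9 the same 3 genes were lower without overlap, and the share among all genes tested was 13.9%. These shares are for lower genes, and the share of all genes tested that were higher without overlap was not counted. An unadjusted p under 0.05 was reached by 6 of the 10 genes and by 26.8% of all genes tested. The median log2 fold change of the 10 genes was -0.88 over all libraries and -0.40 without R7 and R9, beside -0.01 and 0.01 over all genes tested. The estimate was negative for 6 and positive for 4 genes with all libraries, and negative for 7 and positive for 3 without R7 and R9; its sign differed between the fits for KRT19, KRT7 and CDH2.

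**Figure D2:**
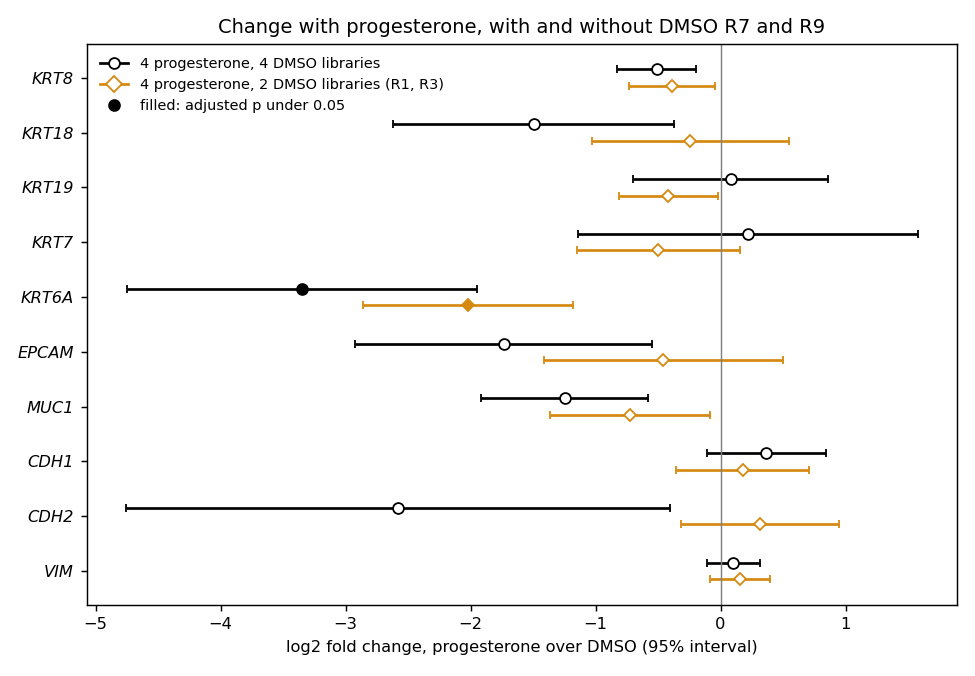
Log2 fold change, progesterone over DMSO, of each gene with its 95% interval, from all 8 libraries (black circles) and without DMSO R7 and R9 (orange diamonds), filled where the adjusted p is under 0.05. KRT6A is filled in both fits, and the estimates of KRT18, EPCAM and CDH2 move toward or past 0 when R7 and R9 are left out.

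KRT8 (Entrez Gene 281269, chromosome 5), the type II keratin of simple epithelia, had 1585, 1918, 2107 and 1348 CPM in progesterone libraries R1, R2, R3 and R6, against 2308, 2286, 2541 and 2789 CPM in DMSO R1, R3, R7 and R9. Every progesterone library lay below every DMSO library, and the lowest value was that of progesterone R6. The mean was 1739.5 ± 338 CPM with progesterone and 2481 ± 236 CPM with DMSO (SD, n = 4 each). The log2 fold change was -0.51 ± 0.14 (SE), with a 95% interval of -0.83 to -0.19, and it missed the threshold (edgeR adjusted p = 0.0744). Without R7 and R9 it was -0.39 (edgeR adjusted p = 0.258).

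KRT18 (506480, chromosome 5), the usual type I partner of KRT8 and its direct neighbour in the gene order, was detected at 27 to 183 counts per library. Its level was 1.80, 1.70, 0.948 and 1.28 CPM in progesterone R1, R2, R3 and R6, against 2.22, 1.21, 5.87 and 6.92 CPM in DMSO R1, R3, R7 and R9. DMSO R7 and R9 were the 2 highest libraries, and DMSO R3 lay inside the range of the progesterone libraries. The log2 fold change was -1.49 ± 0.51 (SE, edgeR adjusted p = 0.107) with all libraries and -0.24 (edgeR adjusted p = 0.794) without R7 and R9. Per 1000 KRT8 counts there were 1.14, 0.881, 0.453 and 0.960 KRT18 counts in progesterone R1, R2, R3 and R6, and 0.960, 0.530, 2.31 and 2.48 in DMSO R1, R3, R7 and R9; these ratios of counts, not per length, serve only to compare libraries. In human, KRT8 and KRT18 have many processed pseudogenes, and an estimated count rests on a model where copies of a gene share reads. Whether this bears on the bovine counts given here was not tested.

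KRT19 (514812, chromosome 19), the smallest type I keratin, had 585, 422, 518 and 361 CPM in progesterone R1, R2, R3 and R6, against 706, 565, 255 and 258 CPM in DMSO R1, R3, R7 and R9. The DMSO libraries lay on both sides of the progesterone libraries, R1 above all of them and R7 and R9 below all of them. Its log2 fold change was 0.08 with a 95% interval of -0.70 to 0.86 (edgeR adjusted p = 0.896). Without R7 and R9 it was -0.42 with an interval of -0.81 to -0.02 (edgeR adjusted p = 0.287), so the sign depended on those libraries.

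KRT7 (535697, chromosome 5), a type II keratin of ducts and glands, followed a similar order. It had 25.7, 23.0, 19.5 and 12.2 CPM in progesterone R1, R2, R3 and R6, against 35.3, 22.0, 5.70 and 6.09 CPM in DMSO R1, R3, R7 and R9. DMSO R1 was again the highest library and R7 and R9 the lowest. Progesterone over DMSO gave a log2 fold change of 0.22 (95% interval -1.14 to 1.58, edgeR adjusted p = 0.834) with all libraries and -0.50 (-1.15 to 0.16, edgeR adjusted p = 0.446) without R7 and R9.

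KRT6A (614456, chromosome 5), a type II keratin induced in wounded and stressed epithelium, was the only one of the 10 genes to pass. It had 0.795, 0.832, 1.72 and 0.951 CPM in progesterone R1, R2, R3 and R6, which were 26, 21, 49 and 23 counts. In DMSO R1, R3, R7 and R9 it had 2.77, 6.10, 14.4 and 20.9 CPM, which were 81, 166, 423 and 552 counts. Every DMSO library was above every progesterone library, and within DMSO the values spread widely, with R7 and R9 at the top. KRT6A fell to a mean of 1.07 ± 0.436 CPM with progesterone, against 11.02 ± 8.18 CPM with DMSO (SD, n = 4 each). It was 10.2-fold lower, a log2 fold change of -3.35 ± 0.62 (SE, edgeR adjusted p = 0.0331). Without R7 and R9 it was 4.06-fold lower (-2.02 ± 0.38, edgeR adjusted p = 0.0366). The call ended with no filter on low counts (edgeR adjusted p = 0.0526), with limma voom (adjusted p = 0.0785), and when any of the 4 progesterone libraries, DMSO R7 or DMSO R9 was left out (edgeR adjusted p between 0.0600 and 0.117). Over all 18 alternatives its adjusted p lay between 6.21e-11 and 0.117, and the direction held in each. The lowest came from the fit with the column number as a replicate block. That fit rests on R1 and R3 of each group, and whether those are paired is not known. The next lowest, 2.37e-08, came from DESeq2.

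The near-identical relatives of KRT6A were almost undetected: KRT6B had 0 to 2 counts in a library and KRT6C 0 in all 8. Of 21 stratified and basal keratins, 3 passed the filter, and KRT6A alone passed the test. KRT5, the basal-cell keratin next to KRT6A in the gene order, had 0.642, 0.396, 0.316 and 0.455 CPM in progesterone R1, R2, R3 and R6, against 1.57, 0.588, 0.746 and 0.832 CPM in DMSO R1, R3, R7 and R9, with a log2 fold change of -1.03 ± 0.39 (edgeR adjusted p = 0.134), and -1.23 (edgeR adjusted p = 0.236) without R7 and R9. Its groups overlapped, since progesterone R1 lay above DMSO R3. Its type I partner KRT14 did not pass the filter, at 0.0351 to 0.153 CPM with progesterone and 0.184 to 1.25 CPM with DMSO.

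Over the whole keratin family, 55 symbols were listed in the table, 31 had a count in at least 1 library and 24 were at 0 in all 8. Only KRT8, KRT19, KRT80 and KRT7 had over 100 counts in every library. All keratin counts together were 0.229%, 0.247%, 0.266% and 0.181% of the library in progesterone R1, R2, R3 and R6, against 0.322%, 0.302%, 0.282% and 0.305% in DMSO R1, R3, R7 and R9. The share was lower in every progesterone library than in every DMSO library. KRT8 made up 69.6% to 78.5% of the keratin counts with progesterone and 73.8% to 88.4% with DMSO, so the share of all keratins mostly restates its values. KRT19 made up 17.3% to 25.7% of keratin counts with progesterone, 22.6% and 19.1% in DMSO R1 and R3, and 8.82% and 8.17% in R7 and R9. KRT80, a keratin of many epithelia and the neighbour of KRT7, had 70.4 ± 9.90 CPM with progesterone and 70.9 ± 4.15 CPM with DMSO (SD, n = 4 each), a log2 fold change of -0.01 ± 0.11, or -0.03 with R7 and R9 left out. No one of the 5 simple epithelial keratins that passed the filter passed the test in either fit, and the median of their log2 fold changes was -0.01 over the 8 libraries and -0.39 without R7 and R9.

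**Figure D3:**
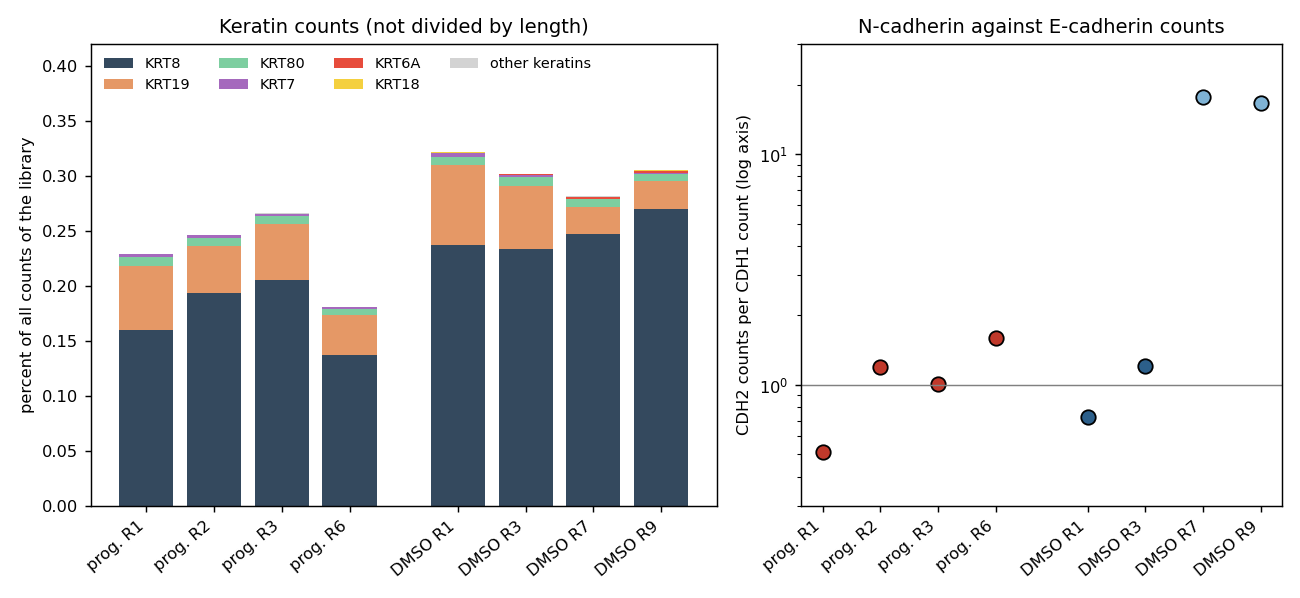
Left, keratin counts as a percent of all counts of each library, stacked by gene and not divided by length. Right, CDH2 counts per CDH1 count on a log axis; the stacks are lower in all 4 progesterone libraries (0.181% to 0.266%) than in the DMSO libraries (0.282% to 0.322%), and the ratio is 17.6 and 16.7 in DMSO R7 and R9 and at most 1.59 elsewhere.

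EPCAM (514039, chromosome 11), an adhesion molecule of epithelial cell surfaces, had 0.275, 0.595, 0.421 and 0.414 CPM in progesterone R1, R2, R3 and R6, against 0.546, 0.624, 1.97 and 2.53 CPM in DMSO R1, R3, R7 and R9. DMSO R7 and R9 were far above the other 6 libraries, among which DMSO R1 lay below progesterone R2. Its log2 fold change was -1.73 ± 0.54 (SE, edgeR adjusted p = 0.0888) with all libraries and -0.46 (95% interval -1.41 to 0.50, edgeR adjusted p = 0.656) without R7 and R9.

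MUC1 (281333, chromosome 3), the transmembrane mucin of the uterine lining, had 1.19, 1.07, 0.878 and 1.08 CPM in progesterone R1, R2, R3 and R6, against 1.98, 1.54, 3.19 and 3.33 CPM in DMSO R1, R3, R7 and R9. The groups did not overlap, and the 4 progesterone libraries lay close together, at 25 to 39 counts each. The log2 fold change was -1.25 ± 0.30 (SE, 95% interval -1.91 to -0.58), just short of the threshold (edgeR adjusted p = 0.0570). Without R7 and R9 it was -0.72 (95% interval -1.37 to -0.08, edgeR adjusted p = 0.256). Leaving out DMSO R1 or DMSO R3 brought MUC1 past the threshold (edgeR adjusted p = 0.0316 and 0.0374), and over all 18 alternatives its adjusted p lay between 0.00789 and 0.256.

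Of 16 genes of the epithelial surface, 10 passed the filter, 1 passed the test as higher and none as lower. The median log2 fold change of the list was -0.38 over the 8 libraries and 0.09 without R7 and R9, where none passed, so its sign rested on those libraries. The one that rose was SPINT2, a membrane inhibitor of serine proteases, with 57.9, 53.9, 49.2 and 60.5 CPM in progesterone R1, R2, R3 and R6, against 43.9, 40.2, 33.3 and 31.8 CPM in DMSO R1, R3, R7 and R9. Its groups did not overlap, and its log2 fold change was 0.57 ± 0.12 (SE, edgeR adjusted p = 0.0417), or 0.41 (edgeR adjusted p = 0.0987) without R7 and R9. PROM1, a protein of membrane protrusions, did not pass and had 14.0 to 19.4 CPM with progesterone, 18.7 and 21.8 CPM in DMSO R1 and R3, and 109 and 123 CPM in R7 and R9.

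CDH1 (282637, chromosome 18), which encodes E-cadherin of the adherens junction, had 22.7, 13.8, 13.1 and 15.7 CPM in progesterone R1, R2, R3 and R6, against 17.3, 11.9, 10.99 and 10.5 CPM in DMSO R1, R3, R7 and R9. The highest library was progesterone R1 and the lowest were DMSO R7 and R9, but DMSO R1 lay above 3 of the progesterone libraries. Its log2 fold change was 0.37 ± 0.21 (SE, 95% interval -0.11 to 0.84, edgeR adjusted p = 0.291), and 0.18 (edgeR adjusted p = 0.769) without R7 and R9.

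CDH2 (281062, chromosome 24), which encodes N-cadherin, had 11.6, 16.6, 13.2 and 25.0 CPM in progesterone R1, R2, R3 and R6, against 12.5, 14.3, 194 and 175 CPM in DMSO R1, R3, R7 and R9. DMSO R1 and R3 lay within the range of the progesterone libraries, and R7 and R9 lay several-fold above all others. Across all libraries the log2 fold change was -2.58 ± 0.94 (SE, 95% interval -4.76 to -0.41, edgeR adjusted p = 0.137), and 0.32 ± 0.28 (95% interval -0.32 to 0.95, edgeR adjusted p = 0.632) without R7 and R9, so its sign rested on these 2 libraries. There were 0.511, 1.2, 1.01 and 1.59 CDH2 counts per CDH1 count in progesterone R1, R2, R3 and R6, against 0.723, 1.21, 17.6 and 16.7 in DMSO R1, R3, R7 and R9.

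Of 10 cadherins 6 passed the filter and none passed the test in either fit; the median log2 fold change was -0.19 over the 8 libraries and 0.09 without R7 and R9, so its sign too rested on them. CDH13, a cadherin anchored to the membrane by a lipid, was like CDH2 in that it had 5.30 to 11.7 CPM with progesterone, 3.99 and 4.30 CPM in DMSO R1 and R3, and 42.5 and 43.1 CPM in R7 and R9. CDH11, a cadherin of mesenchymal cells, lay between 209 and 247 CPM with progesterone and between 212 and 281 CPM with DMSO. CDH3, the P-cadherin gene beside CDH1, lay between 6.78 and 9.14 CPM with progesterone and between 4.31 and 9.46 CPM with DMSO. Of 13 catenins and nectins, which bind cadherins or act beside them, 11 passed the filter and none passed the test in either fit, with a median of -0.11, and of -0.02 without R7 and R9. The catenin CTNNB1 had 371 ± 17.8 CPM with progesterone and 421 ± 44.1 CPM with DMSO (SD, n = 4 each), and JUP had 663 ± 104 CPM with progesterone and 568 ± 124 CPM with DMSO. CTNNA2, the neural alpha-catenin, had 2.63 to 4.92 CPM with progesterone, 4.20 and 4.48 CPM in DMSO R1 and R3, and 20.2 and 22.3 CPM in R7 and R9.

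VIM (280955, chromosome 13), which encodes the main filament protein of mesenchymal cells, had 6608, 6692, 7467 and 6562 CPM in progesterone R1, R2, R3 and R6, against 5814, 6572, 6816 and 6239 CPM in DMSO R1, R3, R7 and R9. The groups overlapped and DMSO R7 and R9 lay among the other libraries, unlike at CDH2. The mean was 6832 ± 427 CPM with progesterone and 6360.3 ± 434 CPM with DMSO (SD, n = 4 each). The log2 fold change was 0.10 ± 0.10 (SE, edgeR adjusted p = 0.510), and 0.15 (edgeR adjusted p = 0.529) without R7 and R9. Its 95% intervals, -0.11 to 0.32 in the fit of 8 libraries and -0.08 to 0.39 without R7 and R9, were the narrowest of the 10 genes in both fits.

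VIM took 0.665% to 0.728% of all counts with progesterone and 0.598% to 0.670% with DMSO. For each KRT8 count there were 4.17, 3.49, 3.54 and 4.87 VIM counts in progesterone R1, R2, R3 and R6, against 2.52, 2.88, 2.68 and 2.24 in DMSO R1, R3, R7 and R9. This ratio, not per length, was higher in every progesterone library than in every DMSO library, R7 and R9 included, and was not tested on its own. VIM varied little between libraries and KRT8 was lower in every progesterone library, so the ratio mostly restates the KRT8 values.

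**Figure D4:**
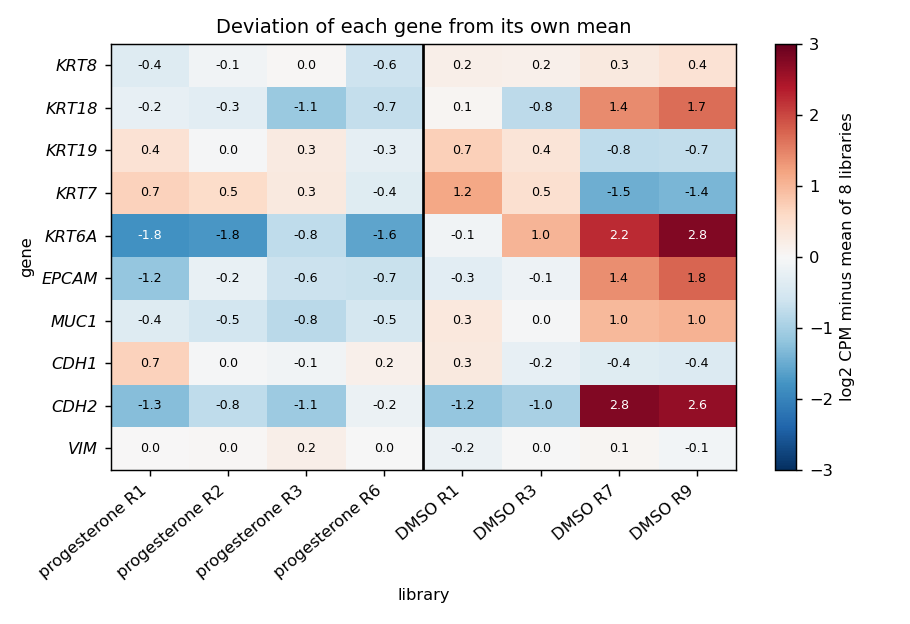
Deviation of each gene from its own mean over the 8 libraries, in log2 CPM, with progesterone libraries left of the black line and DMSO libraries right of it. DMSO R7 and R9 are the 2 highest libraries at KRT8, KRT18, KRT6A, EPCAM, MUC1 and CDH2 and the 2 lowest at KRT19, KRT7 and CDH1, while VIM stays within 0.2 of its mean.

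Of 20 tight junction genes 10 passed the filter and 1 passed the test, with a median log2 fold change of -0.09, or 0.02 with R7 and R9 left out. It was CXADR, a junction protein known as the coxsackievirus and adenovirus receptor, which had 56.8, 61.1, 52.7 and 48.6 CPM in progesterone R1, R2, R3 and R6, against 38.2, 34.5, 44.9 and 39.9 CPM in DMSO R1, R3, R7 and R9. The groups did not overlap, and CXADR rose 1.39-fold (0.48 ± 0.11 on the log2 scale, edgeR adjusted p = 0.0486). With R7 and R9 left out it passed again (0.61, edgeR adjusted p = 0.0332). CLDN1, a claudin that seals tight junctions, had 276 to 378 CPM with progesterone, 311 and 156 CPM in DMSO R1 and R3, and 49.5 and 45.5 CPM in R7 and R9, with a log2 fold change of 1.26 ± 0.60 (edgeR adjusted p = 0.217), and 0.55 (edgeR adjusted p = 0.348) without R7 and R9.

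Of 14 desmosome and envelope genes 8 passed the filter, and 1 passed the test as lower, with a median of -0.09, and of -0.07 without R7 and R9, where none passed. PKP2, a plakophilin of the desmosomal plaque, had 36.6, 35.8, 40.7 and 30.7 CPM in progesterone R1, R2, R3 and R6, against 48.8, 56.0, 94.0 and 86.8 CPM in DMSO R1, R3, R7 and R9. It fell 1.98-fold without overlap (-0.99 ± 0.20 on the log2 scale, edgeR adjusted p = 0.0394). The estimate without R7 and R9 was -0.53 (edgeR adjusted p = 0.0587). The envelope linkers PPL and EVPL, which tie keratins to desmosomes, were higher in every progesterone library than in every DMSO library and did not pass. PPL had 159 ± 11.9 CPM with progesterone and 120.2 ± 12.5 CPM with DMSO, and EVPL had 7.09 ± 2.31 CPM with progesterone and 2.24 ± 1.32 CPM with DMSO (SD, n = 4 each); the edgeR adjusted p was 0.0528 for PPL and 0.0551 for EVPL. With R7 and R9 left out, the log2 fold change was 0.36 for PPL (edgeR adjusted p = 0.149), against 0.40 with all libraries, and 1.14 for EVPL (edgeR adjusted p = 0.110), against 1.66. DSC2, which precedes CDH2 by 1 gene in the gene order with DSC3 between them, had 8.52 to 11.4 CPM with progesterone, 10.4 and 13.6 CPM in DMSO R1 and R3, and 34.6 and 35.0 CPM in R7 and R9.

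Among transcription and splicing factors of the epithelial programme, 12 of 21 passed the filter and none passed the test in either fit, with a median of -0.17, and of -0.02 without R7 and R9. The grainyhead factor GRHL1 had 6.36, 6.10, 6.22 and 4.84 CPM in progesterone R1, R2, R3 and R6, against 7.89, 8.45, 10.99 and 10.9 CPM in DMSO R1, R3, R7 and R9, without overlap (log2 fold change -0.70 ± 0.17, edgeR adjusted p = 0.0570; -0.46, edgeR adjusted p = 0.221, without R7 and R9). The epithelial splicing factor ESRP1 had 0.492 to 1.90 CPM with progesterone, against 1.03 to 3.18 CPM with DMSO, and ESRP2 had 4.47 to 6.78 CPM with progesterone, against 4.73 to 9.32 CPM with DMSO. Of 16 mesenchymal regulators 12 passed the filter and 1 passed the test as lower. Their median was -0.23 over the 8 libraries and 0.15 without R7 and R9, where none passed, so the sign of the median turned. The gene that passed was the homeobox factor PRRX1, with 74.4, 67.9, 57.2 and 74.9 CPM in progesterone R1, R2, R3 and R6, against 103.8, 94.9, 95.9 and 95.6 CPM in DMSO R1, R3, R7 and R9. Its DMSO libraries lay close together, R7 and R9 included, and it fell 1.42-fold (-0.51 ± 0.10 on the log2 scale, edgeR adjusted p = 0.0321). Without R7 and R9 the estimate for PRRX1 was -0.52 (edgeR adjusted p = 0.0614). Of the regulators tested, 2 were lower without overlap and 1, TWIST2, was higher. TWIST2 had 11.7 to 16.2 CPM with progesterone and 6.96 to 10.9 CPM with DMSO, and did not pass. Its log2 fold change was 0.57 (edgeR adjusted p = 0.0795), and 0.43 (edgeR adjusted p = 0.205) without R7 and R9. The E-cadherin repressor SNAI2 had 15.9 to 25.9 CPM with progesterone and 10.5 to 39.9 CPM with DMSO. Its estimate turned from -0.29 to 0.36 when R7 and R9 were left out. ZEB1 had 27.9 to 33.1 CPM with progesterone. In DMSO R1 and R3 it was below every progesterone library, at 25.4 and 23.0 CPM. In R7 and R9 it was above every one, at 47.2 and 44.3 CPM. The estimate for ZEB1 was -0.17 with all libraries (edgeR adjusted p = 0.644). It turned to 0.37 when R7 and R9 were left out (edgeR adjusted p = 0.135).

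Of 16 mesenchymal markers 14 passed the filter and 1 passed the test as lower, with a median of -0.32, and of -0.13 without R7 and R9, where none passed. The receptor tyrosine kinase AXL had 311, 301, 299 and 267 CPM in progesterone R1, R2, R3 and R6, against 372, 393, 533 and 477 CPM in DMSO R1, R3, R7 and R9. It fell 1.51-fold without overlap (-0.59 ± 0.12 on the log2 scale, edgeR adjusted p = 0.0377). The estimate without R7 and R9 was -0.36 (edgeR adjusted p = 0.0910). Of 17 genes of linkers and of filaments other than keratins, 12 passed the filter. VIM, DES and NES are in both this list and that of the mesenchymal markers. None of the filament and linker genes passed the test in either fit, with a median of -0.24, and of -0.13 without R7 and R9. The filament protein nestin (NES) had 204 ± 42.1 CPM with progesterone and 283 ± 53.8 CPM with DMSO (SD, n = 4 each), with a log2 fold change of -0.47 (edgeR adjusted p = 0.122), or -0.21 (edgeR adjusted p = 0.577) with R7 and R9 left out. Over all 18 lists, with each gene counted once, 6 of the 126 genes tested passed (4.76%), against 2.65% of all genes tested, and without R7 and R9 it was 2 of 128 (1.56%), against 1.18%. The 6 were SPINT2 and CXADR as higher and KRT6A, PKP2, PRRX1 and AXL as lower, and the 2 that passed also without R7 and R9 were KRT6A and CXADR. As for KRT6A, the calls of the other 5 ended when any progesterone library, DMSO R7 or DMSO R9 was left out, and that of CXADR also without DMSO R3 (edgeR adjusted p at most 0.134), with the direction unchanged in all 18 alternatives for each gene. In R7 and R9 the summed mesothelium genes were low and the stroma genes moved both ways, COL1A1 high and DCN low, alongside CDH2, KRT7 and KRT19; their part in these values was not tested.

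The genes whose deviations over the 8 libraries lay closest to each of the 10 genes were taken by the root mean square difference of log2 CPM. For CDH2 the closest of 11532 genes was FAT4, an atypical cadherin, at a difference of 0.18, with 3.12 to 6.82 CPM with progesterone, 3.75 and 3.75 CPM in DMSO R1 and R3, and 69.1 and 58.9 CPM in R7 and R9. For KRT6A it was DKK2, a secreted modulator of WNT signalling, at 0.47, with 7.83 to 11.3 CPM with progesterone, against 20.9, 37.5, 145 and 136 CPM in DMSO R1, R3, R7 and R9. DKK2 also passed the test (log2 fold change -3.18, edgeR adjusted p = 0.0479), and did so without R7 and R9 (-1.62, edgeR adjusted p = 0.00888). For MUC1 it was PMEPA1, a TGF-beta-induced membrane protein, at 0.11, with 22.8, 20.5, 16.3 and 24.5 CPM in progesterone R1, R2, R3 and R6, against 40.8, 29.2, 69.3 and 63.8 CPM in DMSO R1, R3, R7 and R9 (log2 fold change -1.27, edgeR adjusted p = 0.0406; -0.72, edgeR adjusted p = 0.0848, without R7 and R9). For KRT8 it was FASTKD3 at 0.08, for EPCAM KIF5C at 0.13, for KRT18 PAK1 at 0.19, for KRT19 TMEM151A at 0.13, for KRT7 TIAM1 at 0.20, for CDH1 GALC at 0.14 and for VIM SLC50A1 at 0.04. The libraries share the split of R7 and R9 from the rest, so these differences describe 8 libraries and were not tested.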

How the data were processed

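The authors deposited 1 table of estimated counts per gene for 8 libraries, 4 of cells given progesterone and 4 given DMSO. Its name says length normalized, but 83.4% of 8211 values between 0.5 and 1.5 lie within 0.1 of 1, and column totals differ, so the values were read as counts not divided by length. This cannot tell whether they had been corrected for length and then scaled back to counts. Salmon 1.4.0, bcl2fastq and the build ARS-UCD1.2 are listed, without a role, in the submitters' processing notes. RNA was poly(A)-selected with a stranded kit, per the labels' protocols. Column names give the group of a library but could not be tied to the samples' replicate numbers.

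Deposited estimated counts were rounded. Genes were kept by filterByExpr with the group, scaled by TMM and tested with edgeR 4.0.16 in R 4.3.3 (quasi-likelihood, robust, two-sided, group as the only term, threshold 0.05 after Benjamini-Hochberg adjustment over all genes tested). The standard error is the log2 fold change divided by the square root of F, and 95% intervals use the fit's degrees of freedom. Libraries of 1 group, taken pairwise, differed beyond sampling noise (chi-square per degree of freedom 14.2 to 129). Alternatives used limma 3.58.1, DESeq2 1.42.0, other scalings and filters, and left-out libraries.

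The 10 genes and the 18 lists of related genes were chosen with earlier results of these data known. Text names every one of the 10 genes, each list gene that passed, and the closest gene in pattern. It also names some other list genes, taken for a small p, a known role or a check of the cell label. Chromosomes come from the deposited table and the gene order from the RefSeq table of ARS-UCD2.0, in which all 10 genes were found. Levels per transcript length and promoter sequences, both planned, were not used here.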

Additional observations from a re-analysis of the deposited data

Results flagged for a closer look

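In 10 of 98 sets of 4 libraries (49 genes in each of the 2 groups), 1 library lay farther from the other 3 than Dixon's 95% limit for 4 values allows. Chance alone gives about 1 in 20 such sets, and genes share libraries, so the sets are not independent. Of the 10 identity genes, KRT6A was set apart in progesterone R3 (1.72 CPM, others 0.795 to 0.951) and VIM in the same library (7467 CPM, others 6562 to 6692). In progesterone R6, CDH13 was high (11.7 CPM, others 5.30 to 6.30), and GRHL1 (4.84 CPM, others 6.10 to 6.36) and ESRP2 (4.47 CPM, others 6.50 to 6.78) were low. In progesterone R1, KRT14 was high (0.153 CPM, others 0.0351 to 0.0414), which rests on 1 to 5 counts. In DMSO R1, DSP (227 CPM, others 104.4 to 112), PRRX1 (103.8 CPM, others 94.9 to 95.9) and UPK3B (20.9 CPM, others 6.43 to 7.82) were high, and in DMSO R3 it was KRT80 (77.1 CPM, others 68.4 to 69.3). A pair of libraries that stands apart together, as DMSO R7 and R9 do, is not picked up by this measure.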

How the results depend on the processing

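With all 8 libraries 1 of the 10 genes and 359 of all genes tested passed. Other scalings moved the median log2 fold change of all genes by less than 0.01, and with them, a mean of at least 1 CPM (where 9 of the 10 genes were tested) or unrounded counts the call remained KRT6A. No gene of the 10 passed with no filter (0) or with limma voom (0), while DESeq2 called 6 of the 10 (CDH2, KRT8, MUC1, KRT18, EPCAM and KRT6A, all lower) and 1830 of all genes. Without DMSO R7 and R9, 162 of all genes passed. Leaving out 1 library at a time gave 0 to 4 of the 10 genes and 42 to 1782 of all genes; the 10 gave 4 without DMSO R1, 3 without DMSO R3 and 0 without any other library.

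The sign turned for KRT19 without DMSO R7 (log2 fold change -0.11), without DMSO R9 (-0.11), without progesterone R1 (-0.039) and without both R7 and R9 (-0.42), within a range of -0.11 to 0.39 over libraries left out singly. It turned for KRT7 without R7 (-0.074), without R9 (-0.063) and without both (-0.50), within a range of -0.074 to 0.84, and for CDH2 without both (0.32). With the column number as a replicate block, 4 of the 10 genes (KRT8, KRT19, KRT7 and KRT6A, all lower) and 2531 of all genes passed, with KRT19 at -0.20 and KRT7 at -0.33. Only numbers R1 and R3 occur in both groups, so that fit compares those 2 pairs and takes the spread between libraries from them alone. The correlation of their deviations was 0.23 for R1 and 0.21 for R3, and no unmatched pair was computed beside them. Nothing in the labels ties the numbers together, so whether equal numbers mark paired libraries is not known. The list genes that passed with all libraries did so in 9 (CXADR), 10 (PKP2 and SPINT2) and 11 (PRRX1 and AXL) of 18 alternatives. The causes of these differences were not tested. Levels per transcript length, planned with and without R7 and R9, were not run. Counts under 100 in a library limit KRT18, EPCAM, MUC1 and KRT6A.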

Other observations

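Genes next to the 10 identity genes were read in the RefSeq gene order. EIF4B, a translation initiation factor beside KRT18 and KRT8, rose to 772, 675, 684 and 644 CPM in progesterone R1, R2, R3 and R6, against 565, 510, 422 and 448 CPM in DMSO R1, R3, R7 and R9 (log2 fold change 0.51, edgeR adjusted p = 0.0450; 0.38, edgeR adjusted p = 0.112, without R7 and R9), while the estimates for both keratins were negative. STPG4, near EPCAM, rose to 2.75, 3.01, 2.60 and 3.76 CPM in progesterone R1, R2, R3 and R6, against 1.81, 1.36, 1.26 and 1.29 CPM in DMSO R1, R3, R7 and R9 (log2 fold change 1.08, edgeR adjusted p = 0.0450; 0.94, edgeR adjusted p = 0.125, without R7 and R9). DSC3, a desmosomal cadherin between DSC2 and CDH2 that did not pass the filter, had at most 0.124 CPM in any progesterone library, 0.0683 and 0.0734 CPM in DMSO R1 and R3, and 3.46 and 4.69 CPM in R7 and R9, so the 3 adjacent cadherin genes were all highest in those libraries. The type XVII collagen gene COL17A1, of hemidesmosomes and the third closest to KRT6A in pattern, fell to 0.458, 0.396, 0.492 and 0.703 CPM in progesterone R1, R2, R3 and R6, against 1.02, 1.91, 3.87 and 4.16 CPM in DMSO R1, R3, R7 and R9 (log2 fold change -2.41, edgeR adjusted p = 0.0307; it did not pass without R7 and R9, edgeR adjusted p = 0.0910). These neighbours and this gene were chosen after their values were seen.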
